A study of Mus musculus with 28 samples.

Results

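The genes described are the 2 ligands and the 2 receptors of the ALK system, Fam150a, Fam150b, Alk and Ltk, found by name in the deposited tables of nascent transcription. All 4 were among the 21192 genes tested, of 22919 listed. The set was chosen by the log2 change of Fam150b under silencing, the lowest in both arms, and the other 3 genes were taken by name as its family. The values of Fam150b under silencing are therefore a description and carry no test. Its vehicle levels were part of the same change, so its comparisons that use vehicle are not independent of the choice.

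ALK (anaplastic lymphoma kinase) and LTK (leukocyte tyrosine kinase) are receptor tyrosine kinases of the insulin receptor superfamily. The proteins of Fam150a and Fam150b, genes now named Alkal1 and Alkal2, are small secreted ligands that bind these receptors and switch on their kinases. Signals pass through adaptor proteins to the Ras and MAP kinase, PI3 kinase and STAT branches. ALK is best known from the developing nervous system and, when mutated, from neuroblastoma.

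Nascent RNA was measured by Bru-seq, in which living cells take up bromouridine and the RNA made during the label is pulled down, here from the last 20 minutes before harvest. Each replicate was a culture of cortex and hippocampus pooled over CD1 mouse embryos of embryonic day 18, labelled as holding neurons, astrocytes and oligodendrocyte precursor cells. Every culture was infected at 14 days in vitro with a lentivirus, carrying either a control shRNA (shCtrl) or one against Rai1 (shRai1). At 17 days it had 4 hours of vehicle (water), of tetrodotoxin (TTX, 1 µM), which blocks sodium channels and silences the network, or of bicuculline (BIC, 20 µM), which blocks inhibitory GABA-A receptors and raises activity. The 16 libraries formed 6 groups of 3, except shCtrl with vehicle and shCtrl with BIC, which had 2 libraries each.

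The deposited values were summaries, so the values of single libraries and their depth are unknown. Each of 7 comparisons had a log2 change with its standard error (SE), and each condition 1 pooled FPKM (a read count scaled by gene length and library size). Across genes the median of the mean normalized counts was 107. All 10 neuron markers, 8 of 9 astrocyte and 6 of 7 oligodendrocyte precursor markers had a mean count of at least 50, against 1 of 8 microglia markers. Rai1 did not pass between the arms in any treatment, at 0.16 (SE 0.073) with vehicle, -0.12 (SE 0.064) with TTX and 0.03 (SE 0.073) with BIC by the authors' deposited tables. Its average over the treatments was 0.02 (SE 0.041), so directions between the arms rest on the labels. These values are of nascent RNA, and mature Rai1 RNA and protein were not read here.

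The FPKM columns of the shRai1 arm went against the comparison tables. Fam150b had 0.593 FPKM in the column named for untreated, 8.43 in that named for BIC and 23.9 in that named for TTX. By the authors' deposited table it was lowest under TTX in that arm. These columns were used only in the mean FPKM over all 6 conditions that set the filter of the Wald test, which Fam150a passed only with them. The FPKM values below are those of the shCtrl arm, whose columns followed the tables for Fam150b and Alk.

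The promoters of Fam150b and Alk are shown because these were the members whose transcription followed activity. Both windows are from RefSeq (GRCm38.p6), run from 250 bases before to 50 after the start, and are written 5′ to 3′ on the strand of the gene. Capitals mark TGACG, the half-site of the cyclic AMP response element bound by CREB, searched on both strands.
Fam150b (Alkal2), chr12:30884074-30884373, plus strand: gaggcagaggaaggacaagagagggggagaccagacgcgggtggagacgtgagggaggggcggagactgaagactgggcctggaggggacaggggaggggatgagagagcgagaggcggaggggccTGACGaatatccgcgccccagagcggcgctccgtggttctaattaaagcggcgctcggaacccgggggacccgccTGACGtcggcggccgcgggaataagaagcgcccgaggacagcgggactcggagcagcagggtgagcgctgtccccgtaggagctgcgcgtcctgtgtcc
Alk, chr17:72604258-72604557, minus strand: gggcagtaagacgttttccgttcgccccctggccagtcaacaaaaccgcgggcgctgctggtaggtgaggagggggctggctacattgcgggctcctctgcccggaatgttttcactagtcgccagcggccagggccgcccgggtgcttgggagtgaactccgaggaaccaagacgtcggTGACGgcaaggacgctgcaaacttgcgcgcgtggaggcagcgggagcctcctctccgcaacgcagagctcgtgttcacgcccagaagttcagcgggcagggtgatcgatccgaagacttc

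The Fam150b window held 2 such half-sites and the Alk window 1. Of 32817 promoter windows of the same length, 20.8% held at least 1 and 5.01% at least 2. Those windows were not matched for base content: their mean GC was 53.8%, against 68.3% for Fam150b and 64% for Alk. The palindrome TGACGTCA, which contains the half-site on both strands, was in neither window and in 1.79% of all windows. The AP-1 letters TGANTCA (7.81% of windows), the EGR letters GCGNGGGCG (5.56%), the CArG box (1.63%) and the MEF2 box (0.558%) were also in neither. The core letters of NPAS4 sites, TCGTG on either strand, occurred once in the Alk window, not in that of Fam150b, and in 16.04% of all windows. The Ltk window held the EGR letters once and no TGACG. These are matches of letters and not measured binding.

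In control cultures the order of the levels per length changed with the condition and in part with the table. By FPKM, in vehicle Fam150b stood at 6.71 FPKM (bounds 2.27 to 11.2), as pooled by the authors. Alk followed at 3.10 FPKM (bounds 2.06 to 4.15), Ltk at 2.00 FPKM (bounds 0.814 to 3.18) and Fam150a at 0.227 FPKM (bounds 0 to 1.04). The bounds of each gene overlapped those of its neighbours in this order, so no adjacent pair was separated. By counts reconstructed from the comparison tables, Fam150a and Ltk were level in vehicle, at 1.18 and 1.18 per kilobase. Fam150b stood above 59.3% of the listed genes.

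Under TTX the order by FPKM was Ltk at 2.77 FPKM (bounds 1.20 to 4.35), Alk at 1.89 FPKM (bounds 1.13 to 2.64), Fam150b at 0.469 FPKM (bounds 0 to 2.01) and Fam150a, which was listed at 0. Fam150b then stood above 28.2% of the listed genes, and the bounds of Ltk, Alk and Fam150b overlapped from each to the next. The mean normalized counts reconstructed from the comparison tables, as described below, gave another order per kilobase under TTX in shCtrl. Alk led there at 3.81, followed by Ltk at 1.23, Fam150a at 0.804 and Fam150b at 0.355 over its listed interval or 1.02 over its RefSeq length. The order of Ltk and Alk under TTX was thus not settled. Under BIC Fam150b led by FPKM at 20.5 FPKM (bounds 12.3 to 28.7), above 83.8% of the listed genes. Alk came next at 4.64 FPKM (bounds 3.25 to 6.04), then Ltk at 0.908 FPKM (bounds 0.0103 to 1.81) and Fam150a, again listed at 0. Here the bounds of Fam150b, Alk and Ltk did not overlap one another. Within Fam150b the bounds of all 3 conditions were separate from TTX upward, a description, since its TTX and vehicle levels chose it. The bounds of Alk overlapped between vehicle and either drug but not between TTX and BIC.

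**Figure D1:**
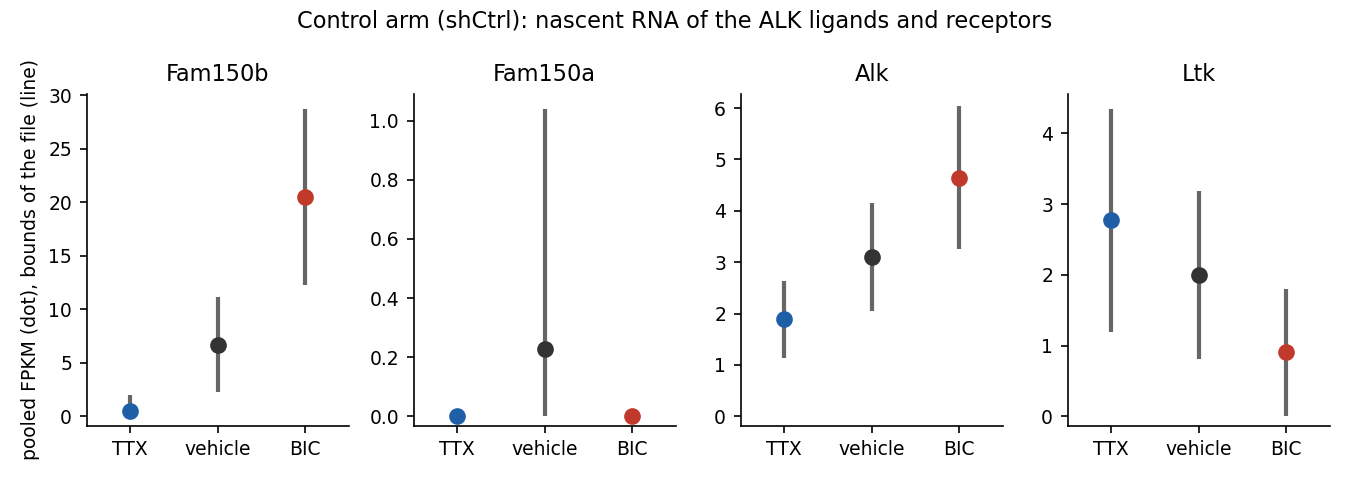
Pooled FPKM of the 4 genes in the control arm under TTX, vehicle and BIC (dots), with the lower and upper bound given in the file (lines), on a separate linear axis for each gene. Fam150b runs from 0.469 under TTX through 6.71 to 20.5 under BIC, Alk from 1.89 through 3.10 to 4.64, while Ltk lies lowest under BIC.

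Fam150b, the gene of the ligand ALKAL2, lies at chr12:31569189-31596477 (mm9, per the submitters' processing notes), an interval of 27289 bases that the FPKM table lists for both Fam150b and Acp1, whereas RefSeq (GRCm38.p6) gives Fam150b a length of 9533 bases. Its nascent RNA was lower under silencing in both arms. By the authors' deposited table its log2 change for TTX against vehicle was -5.38 (SE 0.26) in shCtrl, a level 41.6-fold lower. In shRai1 the authors' deposited table gave -5.35 (SE 0.25), a level 40.9-fold lower. Both were the lowest values among the 21192 genes. The next lowest by the authors' deposited tables were Ptgs2 at -3.95 (SE 0.21) in shCtrl and Pthlh at -3.46 (SE 0.23) in shRai1.

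Raised activity moved Fam150b the other way. Under BIC it stood higher, by the authors' deposited tables, by 1.21 (SE 0.14) in shCtrl and by 1.38 (SE 0.11) in shRai1. Its vehicle levels are part of the change that chose it, so these values are a description. Group levels were reconstructed from the mean normalized count of 429, the log2 changes and the number of libraries per group. Fam150b then had mean counts of 404 with vehicle, 9.70 with TTX and 936 with BIC in the shCtrl arm. For shRai1 the counts were 382, 9.34 and 992. Vehicle lay between the drugs in both arms, farther from TTX than from BIC on the log2 scale. The log2 difference between BIC and TTX was 6.59 in shCtrl and 6.73 in shRai1, from comparisons that share the vehicle libraries and so without an error.

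The size of the fall depended on the table. The log2 ratio of the pooled FPKM of Fam150b under TTX was -3.84 in shCtrl, against -5.38 by the authors' deposited table. Of 12276 genes compared in this way, 0.391% differed as much or more between the tables, and the median absolute difference was 0.139. Both tables gave the same direction. Under BIC the FPKM ratio was 1.61, against 1.21 by the authors' deposited table.

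Fam150a, the gene of the second ligand ALKAL1, lies at chr1:6349412-6384812, an interval listed for no other gene. Averaged over all libraries it was transcribed less, with a mean normalized count of 32.1, or 0.906 per kilobase. For Fam150b this was 15.7 per kilobase over its shared interval or 45.0 over its RefSeq length. Under TTX the reconstructed counts of Fam150a were the higher, at 28.5 against 9.70 in shCtrl and 30.8 against 9.34 in shRai1. Per kilobase of RefSeq length Fam150b was the higher there, at 1.02 against 0.804 in shCtrl and 0.979 against 0.871 in shRai1. The reconstructed counts carry no error, so the order per kilobase is not settled. Fam150a passed in none of the 7 deposited comparisons. Under TTX it was, by the authors' deposited tables, at -0.55 (SE 0.31, adjusted p = 0.198) in shCtrl and -0.28 (SE 0.29, adjusted p = 0.516) in shRai1. Under BIC the authors' deposited tables gave -0.77 (SE 0.34, adjusted p = 0.0621) and -0.31 (SE 0.29, adjusted p = 0.425). Its reconstructed mean counts ran from 24.5 with BIC to 41.8 with vehicle in shCtrl and from 30.1 to 37.5 in shRai1, vehicle being highest in both. Averaged over the arms, Fam150a fell under BIC with a log2 change of -0.54 (SE 0.22, adjusted p = 0.0343) in the Wald test, opposite to Fam150b, where 23.6% of genes were called lower. That call was lost when changes were centred on the median gene, with adjusted p-values from 0.0343 to 0.0521 over the Wald test's alternatives.

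Alk, the larger receptor gene, lies at chr17:72218328-72953647, a length of 735320 bases listed for no other gene. It had a mean normalized count of 6089, or 8.28 per kilobase. TTX lowered Alk, by the authors' deposited tables, with a log2 change of -0.56 (SE 0.12, adjusted p = 5.22e-05) in shCtrl and of -1.11 (SE 0.11, adjusted p = 3.69e-22) in shRai1. BIC raised Alk, by the authors' deposited tables, by 1.42 (SE 0.14, adjusted p = 1.43e-23) in shCtrl and by 1.52 (SE 0.11, adjusted p = 7.83e-43) in shRai1. Alk thus moved in the same directions as Fam150b under both drugs, and by the comparison tables its step under BIC was the larger. The FPKM ratios below put the larger step under TTX in shCtrl. The part of its length of 735320 bases in the sizes of these steps was not tested.

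The reconstructed mean counts of Alk were 4138 with vehicle, 2798 with TTX and 11099.8 with BIC in the shCtrl arm. For shRai1 they were 4503, 2087 and 12928. The FPKM gave a smaller rise under BIC, a log2 ratio of 0.58 against 1.42 by the authors' deposited table, a gap reached by 4.10% of 12271 genes. For TTX the FPKM ratio of Alk was -0.72, against -0.56 by the authors' deposited table.

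Ltk, the second receptor gene, lies at chr2:119577062-119586167. Averaged over all libraries it had the fewest reads of the 4, a mean normalized count of 11.0 or 1.20 per kilobase. By reconstructed counts Fam150b was lower than Ltk under TTX, at 9.70 against 11.2 in shCtrl and 9.34 against 15.8 in shRai1. Such counts carry no error, so that order is not settled. Under TTX Ltk was, by the authors' deposited tables, at 0.06 (SE 0.39, adjusted p = 0.944) in shCtrl and 0.41 (SE 0.37, adjusted p = 0.440) in shRai1. Under BIC the authors' deposited tables gave -0.36 (SE 0.41, adjusted p = 0.545) and -0.78 (SE 0.39, adjusted p = 0.0973). These 4 values have signs opposite to those of Alk, and none passed. Its reconstructed mean counts were lowest with BIC, at 8.34 in shCtrl and 6.92 in shRai1, and highest with TTX, at 11.2 and 15.8.

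Under TTX 1 of the 3 genes not chosen by that contrast passed by the authors' deposited tables in each arm, Alk, which was lower. Over all genes 14.9% were called lower under TTX in shCtrl and 16.8% in shRai1. Under BIC 1 of the same 3 genes passed in each arm by the authors' deposited tables, Alk, which was higher. Fam150b was higher too, but is left out of this tally, since its vehicle levels are part of the change that chose it. Over all genes 17.4% were called higher under BIC in shCtrl and 21.3% in shRai1. The full pattern, lower under TTX and higher under BIC in both arms, was held by 767 of 15464 genes (4.96%), Alk among them. Fam150b also showed it, but its TTX values fixed its choice, so nothing is read from that. Both drugs share the vehicle libraries within an arm, so the comparisons are not independent. In bulk cultures fewer cells of a type and less RNA per cell cannot be told apart.

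**Figure D2:**
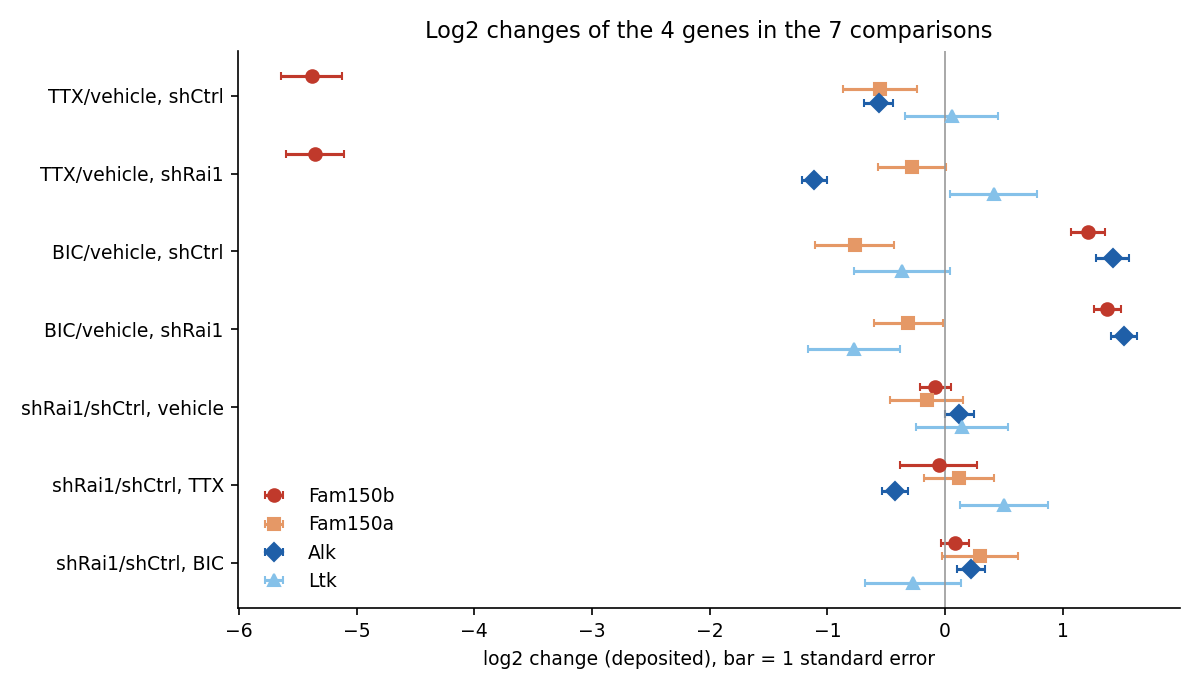
Deposited log2 changes (points) with 1 standard error (bars) for the 4 genes in the 4 drug comparisons and the 3 knockdown comparisons. Fam150b stands at -5.38 and -5.35 under TTX and above 1 under BIC, Alk changes in the same directions, and the knockdown values reach from -0.42 to 0.50.

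Markers of the cell types were read beside these genes. Over all genes 14.9% were called lower and 11.8% higher under TTX in shCtrl, and 16.8% and 13.7% in shRai1. Under BIC 17.4% were called higher and 17% lower in shCtrl, and 21.3% each way in shRai1. Marker counts near these shares are not read as a change. The 10 neuron markers summed to 710.4 FPKM with vehicle, 619 with TTX and 952 with BIC in shCtrl. By the authors' deposited tables, of the 10 markers 5 were lower and 1 higher under TTX in shCtrl (median -0.21), and 6 higher and 3 lower under BIC (median 0.55). In shRai1 the authors' deposited tables gave 4 lower and 0 higher under TTX (median -0.02), and 6 higher and 3 lower under BIC (median 0.70). The 9 astrocyte markers summed to 339, 281 and 269.6 FPKM with vehicle, TTX and BIC. Under TTX the authors' deposited tables called 4 of them lower and 0 higher in shCtrl (median -0.21), and 1 lower and 2 higher in shRai1 (median 0.08). For BIC the authors' deposited tables called 1 higher and 2 lower in shCtrl (median -0.04), and 2 higher and 0 lower in shRai1 (median 0.02). The 8 microglia markers summed to 22.1, 22.9 and 31.9 FPKM in that order, and 5 of them had a mean count under 10. Under TTX the authors' deposited tables called 0 of them in either arm (medians -0.10 in shCtrl and 0.11 in shRai1). For BIC the authors' deposited tables called 2 higher and 0 lower in shCtrl (median 0.31), and 1 higher and 0 lower in shRai1 (median 0.35). Of these lists 0 markers were at 0 in every control condition, and their part in the changes of Fam150b and Alk was not tested.

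Oligodendrocyte precursor markers moved in opposite directions in the arms under TTX. The 7 markers summed to 135 FPKM with vehicle, 94.6 with TTX and 125 with BIC in shCtrl. Under TTX the authors' deposited tables called 5 lower and 0 higher in shCtrl (median -0.76), but 5 higher and 1 lower in shRai1 (median 0.47). Under BIC the calls were 1 higher and 1 lower in shCtrl (median -0.24), and 1 higher and 0 lower in shRai1 (median 0.20), by the authors' deposited tables. In vehicle the authors' deposited table had 4 of them lower in shRai1 than in shCtrl (median -0.78). For shRai1 against shCtrl under TTX the authors' deposited table called 1 higher and 0 lower (median 0.50), and under BIC 0 higher and 1 lower (median -0.41). Between the arms 0.857% of all genes were called in vehicle, 0.0283% under TTX and 0.00944% under BIC, and the shares for the drugs are given above. The part of these cells in the changes of the 4 genes was not tested.

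Whether the Rai1 shRNA changed these genes was asked within each treatment. In vehicle, by the authors' deposited table, shRai1 against shCtrl gave -0.08 (SE 0.13, adjusted p = 0.879) for Fam150b and 0.12 (SE 0.12, adjusted p = 0.777) for Alk. Fam150a stood at -0.16 (SE 0.31, adjusted p = 0.905) there, and Ltk at 0.14 (SE 0.39) had no adjusted p in the authors' deposited table. Fam150b is left out of the tally, since its vehicle levels are part of the change that chose it, and its value is a description. None of the other genes with an adjusted p passed, where 0.857% of all genes did. An unadjusted p under 0.05 was held by none of the others and by 7.75% of all genes. That table carries no gene names, and its rows were named from the mean counts that all 7 tables share.

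Under BIC the authors' deposited table put shRai1 against shCtrl at 0.08 (SE 0.12) for Fam150b and 0.22 (SE 0.12) for Alk, each with an adjusted p of 1.00. Under TTX Fam150b stood at -0.05 (SE 0.33) by the authors' deposited table. Alk stood at -0.42 (SE 0.11) under TTX, with an unadjusted p of 0.000124 and an adjusted p of 0.219 by the authors' deposited table (DESeq2). Fam150a was at 0.12 (SE 0.30) and Ltk at 0.50 (SE 0.37) under TTX, and at 0.30 (SE 0.32) and -0.27 (SE 0.41) under BIC, by the authors' deposited tables. Leaving out Fam150b under TTX, whose levels there chose it and whose value is a description, 0 of 3 passed in TTX and 0 of 4 in BIC, with 1 at an unadjusted p under 0.05 in TTX (Alk) and 0 in BIC, against 3.3% and 2.93% of all genes. Over all genes 0.0283% were called in TTX and 0.00944% in BIC.

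Averaged over the 3 treatments, whose comparisons share no library, shRai1 against shCtrl was -0.03 (SE 0.069) for Alk, 0.09 (SE 0.18) for Fam150a and 0.12 (SE 0.23) for Ltk. Each of these 3 had an adjusted p of 1.00 by the Wald test, which called 0.00548% of genes. The average of Fam150b, -0.02 (SE 0.12), takes in its TTX and vehicle levels and is a description.

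The difference between the arms' drug responses, shRai1 minus shCtrl, tests whether the arms responded differently. For TTX this difference was -0.54 (SE 0.17) for Alk, with a 95% interval of -0.87 to -0.22, the fall being larger in shRai1. Its unadjusted p was 0.000981 and its Benjamini-Hochberg adjusted p 0.0810 by the Wald test, so it did not pass, with a range of 0.0571 to 0.0893 over the alternatives. It uses the same TTX libraries as the value of Alk between the arms under TTX given above, so those results are not independent. Under TTX most oligodendrocyte precursor markers were lower in shCtrl and higher in shRai1, with the counts given above, and their part in this difference was not tested. For Fam150b the TTX difference was 0.03 (SE 0.36), a description without a test, since it comes from the values that chose the gene. Of all genes 0.943% passed for TTX.

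For BIC the difference was 0.17 (SE 0.18) for Fam150b, with an interval of -0.19 to 0.52, a description, since its vehicle levels enter it. It was 0.10 (SE 0.17) for Alk, with an interval of -0.24 to 0.44, and 0.0219% of all genes passed. Fam150a and Ltk did not pass for either drug, at 0.27 (SE 0.43) and 0.36 (SE 0.54) for TTX and 0.45 (SE 0.45) and -0.41 (SE 0.56) for BIC. Leaving out Fam150b, 1 member for TTX (Alk) and 0 for BIC stood at an unadjusted p under 0.05, against 9.05% and 3.03% of all genes.

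The place of the genes among all others was taken from the changes averaged over the arms. Fam150b was at -5.37 (SE 0.18) under TTX and 1.30 (SE 0.091) under BIC, both a description. Alk was at -0.84 (SE 0.083, adjusted p = 1.56e-22) under TTX and 1.47 (SE 0.087, adjusted p = 7.10e-62) under BIC. The Wald test called 17.5% of genes lower under TTX and 22.4% higher under BIC. Likeness was measured among genes with a mean count of at least 50, as the Euclidean distance over the 7 deposited log2 changes. Nearest to Fam150b were Pthlh, the gene of parathyroid hormone-related protein (distance 2.66), Npas4, an activity-induced transcription factor (2.72), and Adamts8, a secreted metalloprotease (3.58). Alk ranked 275 of 12332 from Fam150b, at a distance of 6.44. Nearest to Alk were Dok5, a docking protein for receptor tyrosine kinases (0.482), Adra1a, the alpha-1A adrenergic receptor (0.505), and Adssl1, an adenylosuccinate synthase (0.523). The distances from Fam150b include the TTX changes by which it was chosen and are a description.

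**Figure D3:**
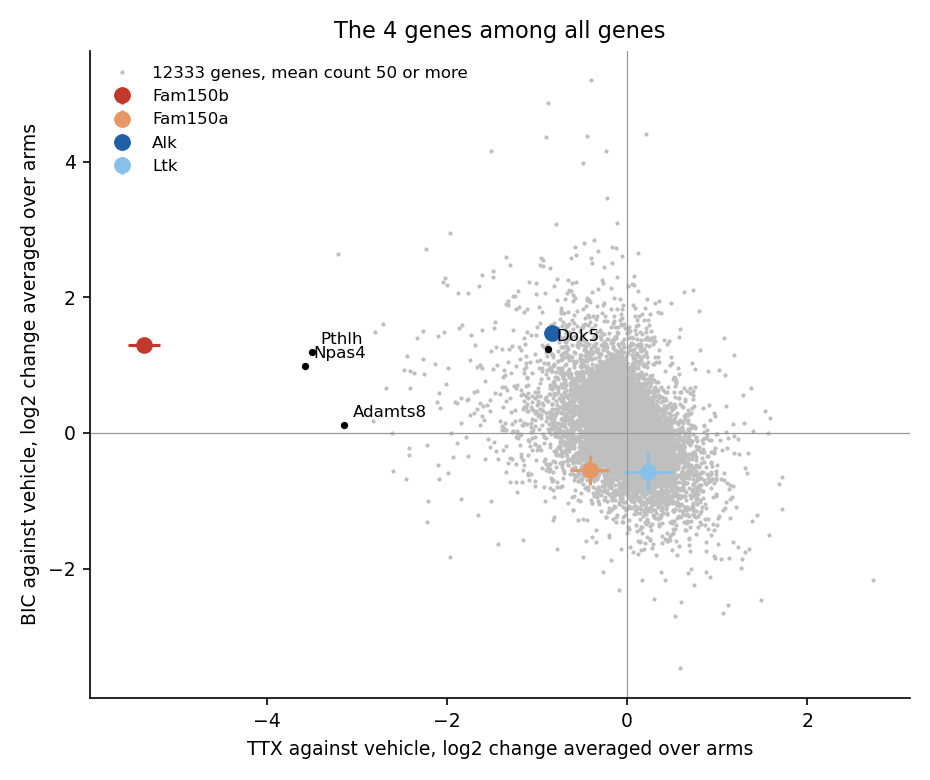
Log2 changes averaged over the arms, TTX against vehicle (horizontal) and BIC against vehicle (vertical), for 12333 genes with a mean count of at least 50 (grey) and the 4 genes with 1 standard error (coloured). Fam150b lies to the left of every other gene at -5.37, and Alk lies in the same quadrant at -0.84.

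The genes within 200 kb of Fam150b and Alk were read for changes of the neighbourhood. Acp1, a phosphatase gene on the interval of Fam150b, stood under TTX, by the authors' deposited tables, at 0.10 (SE 0.11, adjusted p = 0.598) in shCtrl and 0.19 (SE 0.099, adjusted p = 0.133) in shRai1. BIC lowered Acp1, by the authors' deposited tables, with a log2 change of -0.35 (SE 0.13, adjusted p = 0.0226) and -0.33 (SE 0.10, adjusted p = 0.00376). The pooled FPKM of Acp1 gave the other direction in shCtrl, 12.86 with vehicle and 15.96 with BIC (log2 ratio 0.31), so its direction under BIC depended on the table. How reads of the shared interval were assigned to either gene is not given in the sources used here. Sh3yl1, another neighbour, fell under TTX with a log2 change of -0.38 (SE 0.15, adjusted p = 0.0420) in shCtrl and stood at -0.08 (SE 0.13, adjusted p = 0.730) in shRai1 by the authors' deposited tables. BIC raised Sh3yl1, by the authors' deposited tables, by 0.87 (SE 0.15) and 1.03 (SE 0.13), in the direction of Fam150b.

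Beside Alk, TTX raised Fam179a, by the authors' deposited tables, by 1.05 (SE 0.17, adjusted p = 5.88e-09) in shCtrl and by 0.91 (SE 0.15, adjusted p = 1.17e-08) in shRai1, opposite to Alk. Under BIC Fam179a stood at -0.36 (SE 0.20) in shCtrl and fell with a log2 change of -0.76 (SE 0.17) in shRai1 by the authors' deposited tables. Clip4, a linker protein gene, rose under TTX by 0.25 (SE 0.079) and 0.17 (SE 0.070) and did not pass under BIC, at 0.09 (SE 0.089) and 0.08 (SE 0.070), by the authors' deposited tables. Neither of these genes fell under TTX. The third gene within 200 kb, BC027072, had a mean count under 10 and no adjusted p for TTX, at -0.43 (SE 0.42) and -0.63 (SE 0.42) by the authors' deposited tables, the sign of Alk.

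**Figure D4:**
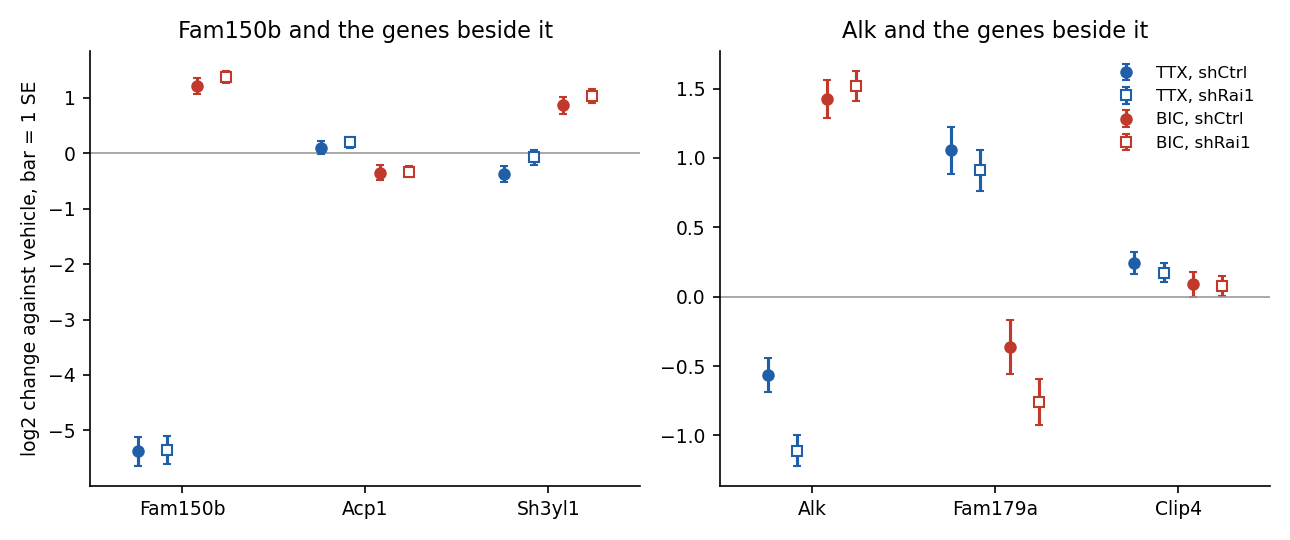
Deposited log2 changes against vehicle, with 1 standard error, of Fam150b (left) and Alk (right) and of the genes within 200 kb that had a mean count of at least 50, for TTX and BIC in each arm. The lowest TTX value of a neighbour is that of Sh3yl1 in shCtrl, -0.38, and Fam179a moves opposite to Alk under TTX.

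The genes through which these receptors act were read from a list of 65. That list also holds 3 genes of the heparin-binding growth factors and their receptor phosphatase, and 4 related receptors. By the authors' deposited tables, of the 65 genes 24 were lower and 6 higher under TTX in shCtrl, and 21 lower and 8 higher in shRai1. Their medians were -0.12 and -0.04, against 0.00 and -0.00 over all genes, of which 11.8% and 13.7% were called higher and 14.9% and 16.8% lower. Under BIC 21 were higher and 14 lower in shCtrl, and 27 higher and 18 lower in shRai1, by the authors' deposited tables. The list medians under BIC were -0.00 and 0.08, and of all genes 17.4% and 21.3% were called higher and 17% and 21.3% lower. In the 3 knockdown comparisons 0 of the list passed by the authors' deposited tables (DESeq2), where an unadjusted p under 0.05 was held by 15 of the 65 with vehicle, 4 with TTX and 2 with BIC. These were 23.1%, 6.15% and 3.08% of the list, against 7.75%, 3.3% and 2.93% of all genes.

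The feedback and target genes had the lowest median of the 7 roles under TTX, -1.09 in shCtrl and -1.20 in shRai1. TTX lowered, by the authors' deposited tables, 10 of the 10 in shCtrl and 8 in shRai1. Dusp4, a phosphatase that switches off MAP kinases, fell with a log2 change of -2.34 (SE 0.13) and -2.54 (SE 0.12) for TTX in shCtrl and shRai1, and BIC raised it by 1.02 (SE 0.14) and 1.24 (SE 0.11), by the authors' deposited tables. Dusp6, a phosphatase specific for ERK, fell under TTX with a log2 change of -1.89 (SE 0.13) and -1.51 (SE 0.12) by the authors' deposited tables. BIC gave 6 higher and 2 lower in shCtrl and 7 higher and 2 lower in shRai1 by the authors' deposited tables. Spry2, an inhibitor of receptor tyrosine kinase signalling, rose under BIC by 0.95 (SE 0.11) and 1.03 (SE 0.085) by the authors' deposited tables. These genes are known to respond to many receptors besides ALK.

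Of the 16 adaptors, 6 were lower and 1 higher under TTX in shCtrl, and 7 lower and 2 higher in shRai1, by the authors' deposited tables. Shc3, a neuronal Shc adaptor, fell under TTX with a log2 change of -1.23 (SE 0.091) and -1.56 (SE 0.080), and Irs2, an insulin receptor substrate, with -1.18 (SE 0.12) and -1.02 (SE 0.10), by the authors' deposited tables. Under BIC 6 adaptors were higher and 1 lower in shCtrl, and 8 higher and 3 lower in shRai1, by the authors' deposited tables. Shc4 of the same family rose by 1.80 (SE 0.15) and 1.87 (SE 0.12), and the docking adaptor Gab2 by 0.91 (SE 0.088) and 0.99 (SE 0.069), by the authors' deposited tables.

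In the Ras and MAP kinase branch 4 of 16 were lower and 2 higher under TTX in shCtrl, and 3 lower and 2 higher in shRai1, by the authors' deposited tables. Rap1b, a small GTPase, fell with a log2 change of -0.70 (SE 0.079) and -0.49 (SE 0.069) for TTX, and BIC raised it by 1.00 (SE 0.084) and 1.03 (SE 0.066), by the authors' deposited tables. Under BIC 7 of the branch were higher and 5 lower in shCtrl, and 8 higher and 5 lower in shRai1, by the authors' deposited tables. Map2k5, the kinase upstream of ERK5, fell under BIC with a log2 change of -0.71 (SE 0.092) and -0.87 (SE 0.074) by the authors' deposited tables.

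The PI3 kinase branch had more members lower than higher under BIC, 4 against 0 of 10 in shCtrl and 6 against 2 in shRai1, by the authors' deposited tables. Foxo3, a transcription factor of this branch, fell under BIC with a log2 change of -0.61 (SE 0.089) and -0.55 (SE 0.070) by the authors' deposited tables. Under TTX 2 were higher and 0 lower in shCtrl, and 2 higher and 1 lower in shRai1, by the authors' deposited tables. Pik3cb, a catalytic subunit, rose under TTX by 0.24 (SE 0.085) and 0.30 (SE 0.075) by the authors' deposited tables. Pik3r2, a regulatory subunit, stood at -0.22 (SE 0.12, adjusted p = 0.187) in shCtrl and fell with a log2 change of -0.38 (SE 0.11) in shRai1 by the authors' deposited tables.

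In the STAT and phospholipase branch 2 of 6 were lower and 0 higher under TTX in shCtrl, and 2 lower and 1 higher in shRai1, by the authors' deposited tables. BIC gave 2 higher and 2 lower in shCtrl and the same counts in shRai1 by the authors' deposited tables. Jak2, a kinase that activates STAT proteins, fell with a log2 change of -0.48 (SE 0.097) and -0.28 (SE 0.086) for TTX, and BIC raised it by 1.40 (SE 0.11) and 1.38 (SE 0.083), by the authors' deposited tables. Plcg2, a phospholipase, fell under BIC with a log2 change of -0.79 (SE 0.25) and -0.67 (SE 0.21) by the authors' deposited tables. Under TTX Plcg2 stood at 0.52 (SE 0.21, adjusted p = 0.0517) for shCtrl and rose by 0.81 (SE 0.19) for shRai1 by the authors' deposited tables.

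Of the heparin-binding growth factors, earlier proposed as ligands of ALK, and their receptor phosphatase, 0 of 3 passed under BIC in either arm by the authors' deposited tables. Ptn (pleiotrophin) fell under TTX with a log2 change of -0.34 (SE 0.11) in shCtrl and stood at 0.09 (SE 0.096) in shRai1 by the authors' deposited tables. Its receptor phosphatase Ptprz1 fell with a log2 change of -0.36 (SE 0.12) in shCtrl and stood at -0.05 (SE 0.11) in shRai1 by the authors' deposited tables. Of the 4 related receptors, Igf1r, the receptor of insulin-like growth factor, rose under TTX by 0.54 (SE 0.078) and 0.32 (SE 0.069), opposite to Alk, by the authors' deposited tables. Insr, the insulin receptor, stood at 0.08 (SE 0.076) and 0.08 (SE 0.066) under TTX by the authors' deposited tables, and 0 of the 4 passed under BIC.

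**Figure D5:**
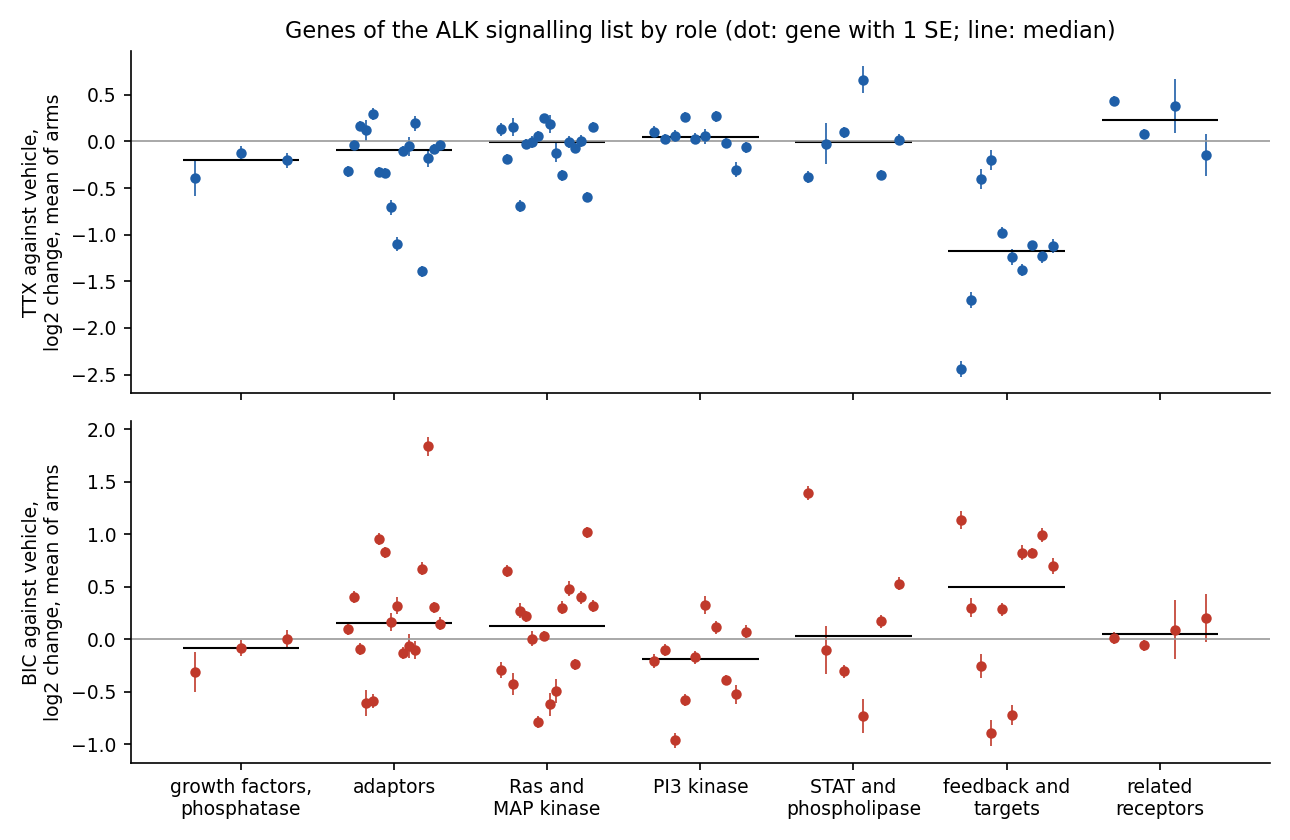
Log2 changes averaged over the arms, TTX (upper) and BIC (lower) against vehicle, of the 65 genes of the ALK signalling list by role, with 1 standard error and the median of each role as a line. The feedback and target genes lie lowest under TTX, with Dusp4 at -2.44, and the PI3 kinase genes lie mostly below 0 under BIC.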

How the data were processed

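Bru-seq of 16 cultures was analysed, and 12 samples of RAI1 ChIP-seq were left out as another assay. Reads were aligned to mm9 with TopHat2 2.1.0 and Bowtie2 2.2.6, and DESeq2 was used, per the submitters' processing notes. The deposited DESeq2 tables give a mean normalized count (a signal averaged over libraries), a log2 change, its standard error, a Wald score and p-values, per the file headers. In the FPKM table the authors deposited a single pooled FPKM and its bounds for each condition. The counting method is not given in the sources used here.

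All 7 tables share their mean counts, and their log2 changes close to within 1e-09. The vehicle knockdown table lacks gene names: 20107 rows were named by a unique mean count, leaving 1085 with means of at most 0.306. Deposited changes of low genes stay near 0 (at most 0.79 in size for means under 1), so folds of Fam150a and Ltk may be understated.

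A gene passed at an adjusted p under 0.05. Averages and arm differences combined deposited changes that share no library, with their errors added as squares. A two-sided Wald test was adjusted by Benjamini-Hochberg over 18241 named genes whose FPKM averaged 0.1 or more over all 6 conditions. Planned tests on single libraries could not be run. Alternatives were other gene sets for adjustment, thresholds of 0.01 and 0.1, centring on the median gene, and FPKM ratios with pseudocounts of 0.1 and 1. Python 3.11.15, scipy 1.17.1 and pandas 2.3.3 were used.

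Members, lists, motifs and rules were chosen with earlier results of these data known. The text names the 4 genes, for each role the 2 list genes at a mean count of at least 50 with the largest averaged change per drug, the 3 nearest genes by likeness, neighbours within 200 kb and Rai1. Some genes that this rule names are not reported here. Ptgs2 was named after its value was seen. Coordinates are 1-based, from deposited starts read as 0-based, which makes the lengths of Fam150a (35401) and Ltk (9106) equal to RefSeq's, while those of Fam150b (27289 against 9533) and Alk (735320 against 735715) differ. RefSeq gave names for all 4 genes and promoters for 3.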

Additional observations from a re-analysis of the deposited data

How the results depend on the processing

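Of 76 counts of called members or list genes under the alternatives, 75 stayed within 1.5 times the main count. Many of these were counts of 0 that stayed at 0. The member counts include Fam150b, which was chosen by its TTX and vehicle levels, so this tally says little about stability. The exception was the arm difference under TTX, where a threshold of 0.1 gave 1 member (Alk) in place of 0. Of 221 values of single members under the alternatives, 0 were called values that changed sign. At a threshold of 0.1 Fam150a under BIC in shCtrl, Ltk under BIC in shRai1 and Ltk under BIC averaged over the arms passed too. With changes centred on the median gene the averaged fall of Fam150a under BIC (-0.50) no longer passed. Ratios of the pooled FPKM moved 12 values by more than 1 standard error: Fam150b under TTX in shCtrl became -3.58 with a pseudocount of 0.1 and -2.39 with 1, and Alk under BIC 0.57 and 0.46, and the cause was not tested. No paired analysis was possible because the tables hold no values per library, and leaving out single replicates was not run for the same reason. Low counts limit Fam150a and Ltk, whose standard errors in the 7 comparisons were 0.29 to 0.41.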
